A study of Mus musculus with 6 samples.

Results

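The genes of the T cell receptor α chain were described in mouse spleen γδT17 cells, which carry a γδ receptor and make interleukin-17. They were taken by name: the variable (V) segments, named Trav, the joining (J) segments, named Traj, and the constant gene Trac. The GENCODE M21 annotation of the GRCm38 build holds 189 such genes, made up of 128 Trav, 60 Traj and Trac, over 1796 kb of chromosome 14, from 52427928 to 54224206. At least 1 library had a row for 81 of them, of 26771 genes listed in all. These were Trac, 10 Trav segments whose names contain dv, which marks a segment that can serve the δ chain as well, and 70 other Trav segments. A gene without a row was counted as 0, although an estimate may also have been lacking.

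Both groups came from C57BL/6 TCRβ-/- mice, which lack the β chain that pairs with the α chain. Induced cells were harvested on day 8 of a culture of spleen cells built on IL-1β and IL-23 and then purified with a Pan T Cell Isolation kit, and the labels state that more than 90% of them made IL-17A. Initial cells were sorted from spleen cells before culture, and the sort gate is not stated in the labels. Each group held 3 messenger RNA libraries, 1 from each of mice A, B and C, and no group with an intact β chain was analysed here. Values are FPKM, the fragments counted on a gene per kilobase of its length and scaled to the fragments of the library, so levels of different genes below are on a per-length scale.

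In a developing T cell the α chain gene is assembled by joining 1 V segment to 1 J segment, and the joined exon is then spliced to Trac. The δ chain genes, Trdv, Trdd, Trdj and Trdc, lie inside the same stretch of chromosome, mostly between the V segments and the Traj cluster, and are deleted when an α chain is joined. V segments with dv in the name are spliced to Trdc when joined to δ segments and to Trac when joined to a Traj segment, and an FPKM value of the V segment does not tell these transcripts, or one from an unjoined segment, apart. The mouse locus also carries the middle of its V cluster in repeated blocks, and segments with the letter d or n behind the family number are copies of those without a letter.

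How alike the copies are sets what their values mean, so stretches of V exons are shown from the families that carried most of the signal. They were read from GENCODE M21 transcripts on the plus strand of GRCm38. Each stretch is 150 bases long and was chosen for the most differing bases within its set. Copies that differ thus look less alike here than over their whole coding sequences. Capitals mark bases that differ from the first sequence of the set. The first set shows that the most abundant Trav15 pair could not be told apart by these bases, while their relative without a letter could. Trav15d-1-dv6d-1 lies at chr14:52863785-52863934, and Trav15n-1, at chr14:53174745-53174894, has the same 150 bases, so that they are printed once. Trav15-1-dv6-1, at chr14:53560096-53560245, differs from both at 10 of them.
Trav15d-1-dv6d-1: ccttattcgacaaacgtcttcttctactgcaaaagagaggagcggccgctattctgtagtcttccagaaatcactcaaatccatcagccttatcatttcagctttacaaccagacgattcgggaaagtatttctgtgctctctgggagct
Trav15-1-dv6-1: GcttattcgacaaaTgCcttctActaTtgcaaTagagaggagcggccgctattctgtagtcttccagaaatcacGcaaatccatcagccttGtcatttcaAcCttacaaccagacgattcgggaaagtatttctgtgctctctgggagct
The second set shows the same arrangement in the neighbouring Trav15 segments. Trav15d-2-dv6d-2, at chr14:52957200-52957349, is printed for itself and for Trav15n-2, at chr14:53268335-53268484, which does not differ from it, and Trav15-2-dv6-2, at chr14:53649794-53649943, differs at 5 bases.
Trav15d-2-dv6d-2: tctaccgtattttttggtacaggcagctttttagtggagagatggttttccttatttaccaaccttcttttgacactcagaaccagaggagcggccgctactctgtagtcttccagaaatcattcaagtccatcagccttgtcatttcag
Trav15-2-dv6-2: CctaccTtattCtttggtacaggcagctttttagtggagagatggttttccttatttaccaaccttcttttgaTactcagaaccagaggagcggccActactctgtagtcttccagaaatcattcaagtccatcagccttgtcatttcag
The third set holds Trav13-4-dv7, the segment with the highest single value among the Induced libraries, at chr14:53757772-53757921, with Trav13d-4, at chr14:53073125-53073274, which differs at 5 bases, and Trav13-2, at chr14:53635250-53635399, which differs at 10.
Trav13-4-dv7: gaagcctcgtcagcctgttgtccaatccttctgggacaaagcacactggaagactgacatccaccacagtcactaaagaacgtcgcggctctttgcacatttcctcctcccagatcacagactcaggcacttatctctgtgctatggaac
Trav13d-4: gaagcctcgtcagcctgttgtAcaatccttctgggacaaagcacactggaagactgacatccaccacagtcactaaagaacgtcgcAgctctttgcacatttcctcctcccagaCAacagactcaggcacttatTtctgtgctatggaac
Trav13-2: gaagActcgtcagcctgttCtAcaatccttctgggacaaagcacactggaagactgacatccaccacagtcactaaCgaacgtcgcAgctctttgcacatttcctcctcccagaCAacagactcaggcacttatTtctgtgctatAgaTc
Over the whole coding sequences the first pair had 352 aligned bases without a mismatch, beside 21 end bases annotated in 1 of them alone, and the second had 352 without a mismatch. In the annotation 20 pairs of Trav genes had identical aligned coding bases, and in 16 of these pairs both genes were listed. Reads within these coding bases cannot be assigned by sequence, and the values of each member of a pair are uncertain to that extent. Bases outside the coding sequences were not compared.

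Trac, the constant gene (ENSMUSG00000076928, chromosome 14, 54220521 to 54224206, GRCm38), fell in Induced cells. It had 51.4, 47.6 and 74.8 FPKM in Induced A, B and C, against 132, 127 and 142 FPKM in Initial A, B and C. Every Induced library was below every Initial library, and Induced C was the highest of its group. The mean was 57.9 ± 14.8 FPKM in Induced cells and 134 ± 7.60 FPKM in Initial cells (SD, n = 3 each). On the scale of log2(FPKM + 1) the change was -1.22 ± 0.16 (SE; limma, adjusted p = 0.00028). In bulk libraries like these, fewer cells of a type and less RNA per cell cannot be told apart. Trdc, the constant gene of the δ chain, had 357, 349 and 299 FPKM in Induced A, B and C, against 327, 320 and 335 FPKM in Initial A, B and C, and its groups overlapped (log2 change 0.03 ± 0.08, limma, adjusted p = 0.76). The ratio of Trac to Trdc was therefore 0.144, 0.136 and 0.251 in Induced A, B and C, against 0.404, 0.396 and 0.424 in Initial A, B and C.

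Across the V segments, 18 passed the filter of at least 1 FPKM in at least 3 of the 6 libraries and were tested. Of these, 12 fell in Induced cells, 0 rose and 6 did not pass the test (limma, adjusted p under 0.05). With Trac, 13 of 19 tested genes fell, where 33.1% of all 11265 genes tested fell, 37.3% rose and 70.4% changed in either direction. All 19 log2 changes were below 0, the one nearest to 0 being -0.30, so none was higher at an unadjusted p under 0.05 either. The groups did not overlap in 14 of the 19, beside 35.4% of all genes tested that lay lower in every Induced library than in every Initial library and 75.4% that did not overlap in either direction. The median log2 change was -1.33 over the 18 V segments and 0.03 over all genes tested. A segment that passed the filter through its Initial values alone had to differ, so these counts describe the segments that passed. Trav14-1 is the one such segment among the 12 that fell, since it stayed below 1 FPKM in every Induced library. When libraries were scaled to the CD3 chains and Trdc, the median of all genes moved to 0.24 and the split of calls over all genes went to 5423 higher and 2635 lower, against 4199 higher and 3732 lower as deposited, and Trac then changed by -0.99.

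**Figure D1:**
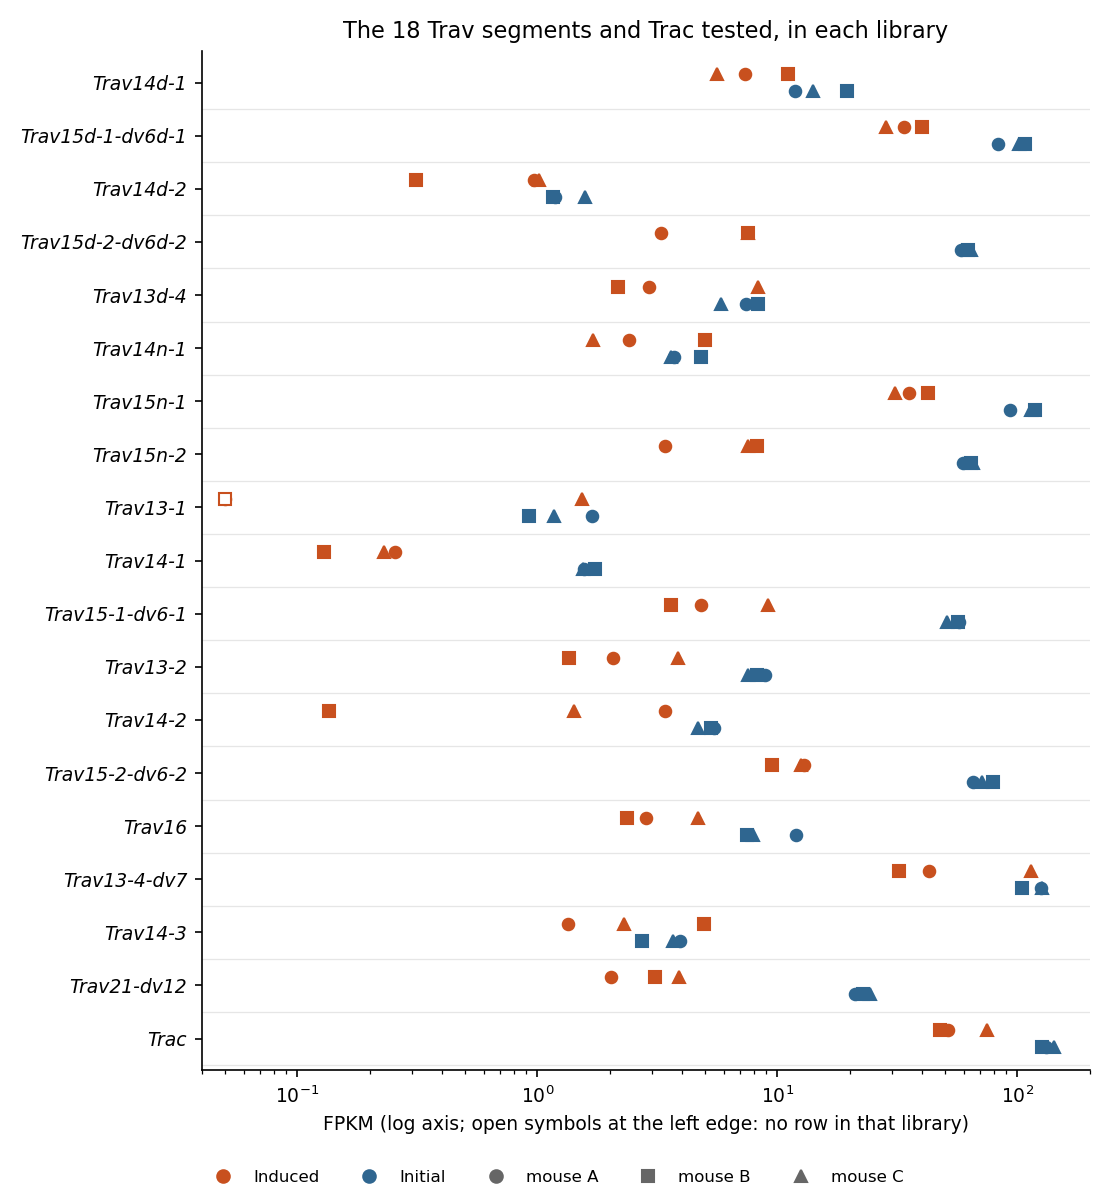
FPKM (log axis) of the 18 tested Trav segments and Trac in each library, in order along the chromosome, with Induced libraries in orange above Initial libraries in blue and the mouse given by the symbol. Trac had 47.6 to 74.8 FPKM in Induced libraries and 127 to 142 FPKM in Initial libraries, and in 5 of the 19 rows the groups overlap; an open symbol stands for a library without a row.

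The segments named for both chains held 53.7 to 70.4% of the summed V level in Induced libraries and 62.6 to 65.0% in Initial libraries. All 10 annotated segments with dv had a row in some library, 6 were tested and 5 of these fell, with a median log2 change of -2.56 over the 6. Trav15-1-dv6-1 had 4.81, 3.61 and 9.18 FPKM in Induced A, B and C, against 56.9, 56.3 and 50.9 FPKM in Initial A, B and C. Trav15d-2-dv6d-2 had 3.29, 7.54 and 7.57 FPKM in Induced A, B and C, against 58.0, 62.2 and 64.1 FPKM in Initial A, B and C. In neither did any Induced library reach 1 in 5 of the lowest Initial value. Their log2 changes were -3.10 ± 0.27 and -3.20 ± 0.27 (SE; limma, adjusted p = 5.9e-05 and 4.6e-05). Trav15-2-dv6-2, which shares 98.28% of its aligned coding bases with Trav15d-2-dv6d-2, had 12.9, 9.48 and 12.5 FPKM in Induced A, B and C, against 65.3, 79.3 and 71.0 FPKM in Initial A, B and C (log2 change -2.53 ± 0.12, limma, adjusted p = 1.3e-06). Trav21-dv12, the tested segment nearest to the δ and J genes, had 2.03, 3.08 and 3.88 FPKM in Induced A, B and C, against 20.96, 22.8 and 24.3 FPKM in Initial A, B and C. Its groups were also far apart, with a log2 change of -2.59 ± 0.17 (limma, adjusted p = 5.2e-06).

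The other pair of dv segments kept a higher level. Trav15d-1-dv6d-1 had 33.6, 39.9 and 28.4 FPKM in Induced A, B and C, against 83.3, 108 and 102 FPKM in Initial A, B and C. The groups did not overlap, and the log2 change was -1.50 ± 0.14 (limma, adjusted p = 4.1e-05). Trav13-4-dv7, the segment with the highest mean in both groups, had 42.6, 32.0 and 114 FPKM in Induced A, B and C, against 125, 104 and 127 FPKM in Initial A, B and C. Induced C lay inside the Initial range while Induced A and B lay below it, and the segment did not pass the test (log2 change -1.12 ± 0.45, limma, adjusted p = 0.064). Without Induced C the change was -1.65 with an adjusted p of 3.8e-05, and over 15 alternatives the adjusted p ran from 3.8e-05 to 0.184. The groups of Trav13-4-dv7 thus overlap through 1 library.

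The 4 dv segments that were not tested stayed below 1 FPKM in every library. Trav16d-dv11 had no row in any Induced library and 0.576, 0.887 and 0.812 FPKM in Initial A, B and C. Trav6-7-dv9 had 0.458 and 0.411 FPKM in Induced A and C and no row in Induced B, against 0.214, 0.258 and 0.347 FPKM in Initial A, B and C, so its groups overlapped. Trav4-4-dv10 was listed in Initial A and C, at 0.392 and 0.430 FPKM, and Trav14d-3-dv8 in Initial C, at 0.223 FPKM, and neither had a row in an Induced library.

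Among Trav segments without dv in the name, 70 of 118 annotated had a row, 12 were tested and 7 of these fell, with a median log2 change of -0.99. The 2 with the highest Initial levels were the copies of dv segments shown above. Trav15n-1 had 35.2, 42.5 and 31.0 FPKM in Induced A, B and C, against 93.1, 118 and 114 FPKM in Initial A, B and C (log2 change -1.56 ± 0.13, limma, adjusted p = 2.3e-05). Trav15n-2 had 3.39, 8.21 and 7.57 FPKM in Induced A, B and C, against 59.3, 64.0 and 65.1 FPKM in Initial A, B and C (log2 change -3.18 ± 0.27, limma, adjusted p = 5.7e-05). The ratio of Trav15n-1 to Trav15d-1-dv6d-1 was 1.05 to 1.09 in Induced and 1.10 to 1.12 in Initial libraries. That of Trav15n-2 to Trav15d-2-dv6d-2 was 1.0 to 1.09 in Induced and 1.02 to 1.03 in Initial libraries. Each pair has identical aligned coding bases, and how shared reads were assigned is not given. The ratios and the separate tests therefore cannot show which copy of a pair changed. The name alone thus does not separate α segments from segments with the sequence of a shared one.

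Of the remaining 10 tested segments without dv, 5 fell. Trav13-2 had 2.06, 1.35 and 3.86 FPKM in Induced A, B and C, against 8.89, 8.20 and 7.55 FPKM in Initial A, B and C (log2 change -1.49 ± 0.24, limma, adjusted p = 0.00096). Trav16 had 2.84, 2.36 and 4.67 FPKM in Induced A, B and C, against 11.9, 7.47 and 7.88 FPKM in Initial A, B and C (log2 change -1.24 ± 0.23, limma, adjusted p = 0.0019). Neither segment's groups overlapped, and Induced C was the highest Induced library in both. Trav14-1 had 0.255, 0.129 and 0.230 FPKM in Induced A, B and C, against 1.57, 1.73 and 1.55 FPKM in Initial A, B and C. It was tested through its Initial values alone, so that its call followed from the filter and no test is read from it. At such levels the Induced values stand for few fragments, since 1 fragment on a coding sequence of 341 bases, the median of the V genes, was worth about 0.119 to 0.133 FPKM in Induced and 0.127 to 0.152 FPKM in Initial libraries.

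The calls for the other 2 segments that fell depended on the setting. Trav14d-1 had 7.30, 11.1 and 5.62 FPKM in Induced A, B and C, against 11.9, 19.5 and 14.0 FPKM in Initial A, B and C (log2 change -0.86 ± 0.25, limma, adjusted p = 0.017). Its call was lost without Initial B (adjusted p = 0.0555), without Induced A (0.0573) and with scaling to the CD3 chains and Trdc (0.0632), in a range of 0.000736 to 0.0632 over 15 alternatives. Trav14-2 had 3.40, 0.136 and 1.42 FPKM in Induced A, B and C, against 5.46, 5.30 and 4.69 FPKM in Initial A, B and C (log2 change -1.42 ± 0.45, limma, adjusted p = 0.028). Its groups did not overlap, but the call was lost in 6 of 14 alternatives, in which the adjusted p ran from 0.0668 to 0.0773 (0.00188 to 0.0773 over all 14). These 6 were a pseudocount of 0.1, scaling to the CD3 chains and Trdc, and leaving out Initial A, Initial B, Initial C or Induced C.

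The 5 tested segments without a call were of the Trav13 and Trav14 families. Trav13d-4 had 2.91, 2.17 and 8.32 FPKM in Induced A, B and C, against 7.37, 8.28 and 5.83 FPKM in Initial A, B and C (log2 change -0.73, adjusted p = 0.14 by limma). Like Trav13-4-dv7, from which it differs at 7 of 331 aligned coding bases, it was high in Induced C, and without that library the change was -1.20 with an adjusted p of 0.000354 (0.000354 to 0.348 over 15 alternatives). Trav14n-1 had 2.41, 5.00 and 1.70 FPKM in Induced A, B and C, against 3.71, 4.79 and 3.60 FPKM in Initial A, B and C (log2 change -0.39, adjusted p = 0.23 by limma). Here Induced B was the high library, and without it the change was -0.72 with an adjusted p of 0.00801 (0.00801 to 0.608 over 14 alternatives). Trav14n-1 has the coding sequence of Trav14d-1, with 364 identical aligned bases, yet its value was 0.302 to 0.450 of that of Trav14d-1 in Induced libraries and 0.246 to 0.312 in Initial libraries.

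Trav14-3 had 1.34, 4.93 and 2.30 FPKM in Induced A, B and C, against 3.94, 2.74 and 3.66 FPKM in Initial A, B and C (log2 change -0.30, adjusted p = 0.41 by limma). Induced B was above all Initial libraries, and Induced A and C were below them. Without Induced B the segment was called, at -0.67 with an adjusted p of 0.0219, and without Induced A the change was 0.0015 with an adjusted p of 0.996, the ends of its range over 14 alternatives. Trav14d-2 had 0.970, 0.314 and 1.02 FPKM in Induced A, B and C, against 1.19, 1.17 and 1.58 FPKM in Initial A, B and C (log2 change -0.41, adjusted p = 0.077 by limma). Its groups did not overlap, and it was called with the mouse as a block (adjusted p = 0.0441) and without Induced C (0.0446), in a range of 0.0441 to 0.715 over 14 alternatives. Trav13-1 was listed in Induced C, at 1.54 FPKM, and not in Induced A or B, against 1.70, 0.921 and 1.18 FPKM in Initial A, B and C (log2 change -0.72, adjusted p = 0.12 by limma). The last 2 were also the segments just inside the filter, and Trav14n-2 and Trav13n-2 lay just outside it, with third-highest values of 0.984 and 0.951 FPKM.

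When copies with at least 97% identical coding sequences were summed before the fit, 13 groups of segments were tested. Of 7 groups that held a dv segment 5 fell, and of 6 without one 5 fell, among them Trav14-1 and the sum of Trav13d-2 and Trav13n-2, which passed the filter through Initial libraries alone. The sum of Trav15d-1-dv6d-1 and Trav15n-1 was 68.8, 82.4 and 59.4 FPKM in Induced A, B and C, against 176, 226 and 216 FPKM in Initial A, B and C (log2 change -1.54 ± 0.14, limma, adjusted p = 3.1e-05). The sum of Trav15d-2-dv6d-2, Trav15n-2 and Trav15-2-dv6-2 was 19.6, 25.2 and 27.6 FPKM in Induced A, B and C, against 183, 206 and 200.1 FPKM in Initial A, B and C (log2 change -2.98 ± 0.12, limma, adjusted p = 5.3e-07). Within the Trav15 family the first group thus kept a larger part of its Initial level than the second, a difference that was not tested. The 3 groups without a call were Trav13d-4 with Trav13-4-dv7 (adjusted p = 0.066), the Trav14-3 copies (0.38) and Trav13-1 (0.12), all by limma.

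**Figure D2:**
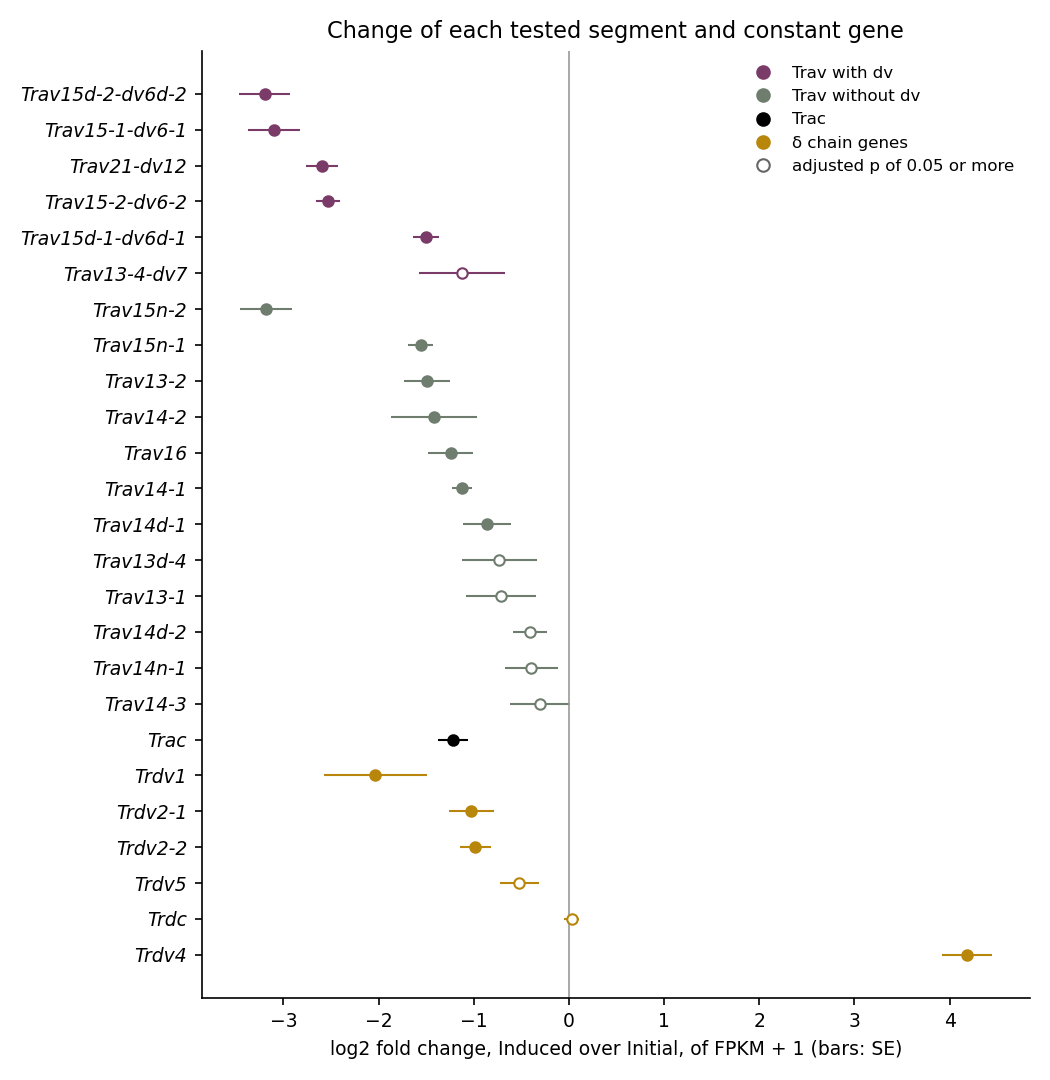
Change of each tested segment, Trac and the tested δ chain genes as log2 fold change of FPKM + 1, Induced over Initial, with bars of 1 SE and open symbols for an adjusted p of 0.05 or more. The V segments lie between -3.20 and -0.30, Trac at -1.22, Trdc at 0.03 and Trdv4 at 4.18.

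Low values were frequent. Of the listed V segments 62 were not tested, 57 of them were below 1 FPKM in every library, and 18 had a row in 1 library alone. No Induced library listed 38 of the 62, and no Initial library listed 1 of them. The number of V segments with a row was 26, 30 and 33 in Induced A, B and C, against 57, 64 and 54 in Initial A, B and C. Induced libraries listed fewer genes of all kinds, 16550 to 17033 against 20419 to 21844 in Initial libraries. The number of V segments with at least 1 FPKM differed less, at 15 to 17 in Induced and 19 to 21 in Initial libraries. Among segments not tested, Trav13n-4 had the highest value, 11.1 FPKM in Initial C, and was listed besides only in Initial B, at 0.319 FPKM, and Induced C, at 0.507 FPKM. Trav13d-2 had 0.155, 0.295 and 0.573 FPKM in Induced A, B and C, against 0.909, 2.22 and 1.62 FPKM in Initial A, B and C, and its identical copy Trav13n-2 had 0.155, 0.295 and 0.0841 FPKM in Induced A, B and C, against 1.02, 2.30 and 0.951 FPKM in Initial A, B and C. Trav14n-2, a copy of Trav14d-2, had 0.736, 0.492 and 0.406 FPKM in Induced A, B and C, against 0.984, 1.01 and 1.16 FPKM in Initial A, B and C. These 3 were lower in every Induced library than in any Initial library, beside 35.4% of all genes tested. They were named for a high mean in a group, and Trav13n-2 for its Initial mean alone. The order of the groups may thus follow in part from the choice.

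A few of the untested segments reached similar or higher values in Induced cells. Trav17 had 1.15 and 1.59 FPKM in Induced A and B and no row in Induced C, against 0.539, 0.716 and 0.577 FPKM in Initial A, B and C. Its mouse A and B libraries were thus higher after culture, and the groups overlapped through Induced C. Trav23, the listed segment nearest to Trac, had 0.608 and 0.301 FPKM in Induced A and B and no row in Induced C, against 0.712, 0.344 and 0.307 FPKM in Initial A, B and C. Trav6d-7 had 0.249 and 0.667 FPKM in Induced B and C and no row in Induced A, against 0.352, 0.361 and 0.396 FPKM in Initial A, B and C. Both overlapped between the groups. Trav17, Trav23 and Trav6d-7 were named for their Induced means alone, so that such values may follow in part from the choice.

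None of the 60 Traj segments had a row in any library. They are 29 to 72 bases long in the annotation, and none of the 898 annotated genes of that length or less was listed, nor any of the 94 J genes of all receptors. The shortest listed gene had 146 bases. The tables therefore hold no measurement of the J segments, and the missing rows say nothing of whether Traj segments were transcribed.

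In sum over all V segments the level in Induced cells was 29.3% of that in Initial cells. The summed FPKM was 165, 178 and 249 in Induced A, B and C, against 632, 693 and 696 in Initial A, B and C. Segments with dv made up 99.8, 95.6 and 176 FPKM in Induced A, B and C, against 411, 434 and 441 FPKM in Initial A, B and C. The segments without dv made up 65.5, 82.3 and 73.9 FPKM in Induced A, B and C, against 221, 259 and 255 FPKM in Initial A, B and C. In both classes every Induced sum was below every Initial sum. Trav15n-1 and Trav15n-2 held 38.6, 50.7 and 38.6 FPKM of the sum without dv in Induced A, B and C, against 152, 182 and 179 FPKM in Initial A, B and C. What was left, 68 segments that were not found identical to a dv segment, summed to 26.9, 31.6 and 35.4 FPKM in Induced A, B and C, against 68.6, 76.98 and 75.7 FPKM in Initial A, B and C. This remainder was 14.2 to 17.8% of the V sum in Induced and 10.9 to 11.1% in Initial libraries. It still holds near copies of dv segments, such as Trav13d-4. The 60 segments not found at 97% identity or more to a dv segment held 7.62 to 12.2% of the V sum in Induced libraries. In Initial libraries they held 6.96 to 8.30%, so that their shares overlapped. They include the pseudogenes Trav13-3 and Trav8-2, which were not aligned, and segments just below that limit, such as Trav14d-1 at 96.12%.

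**Figure D3:**
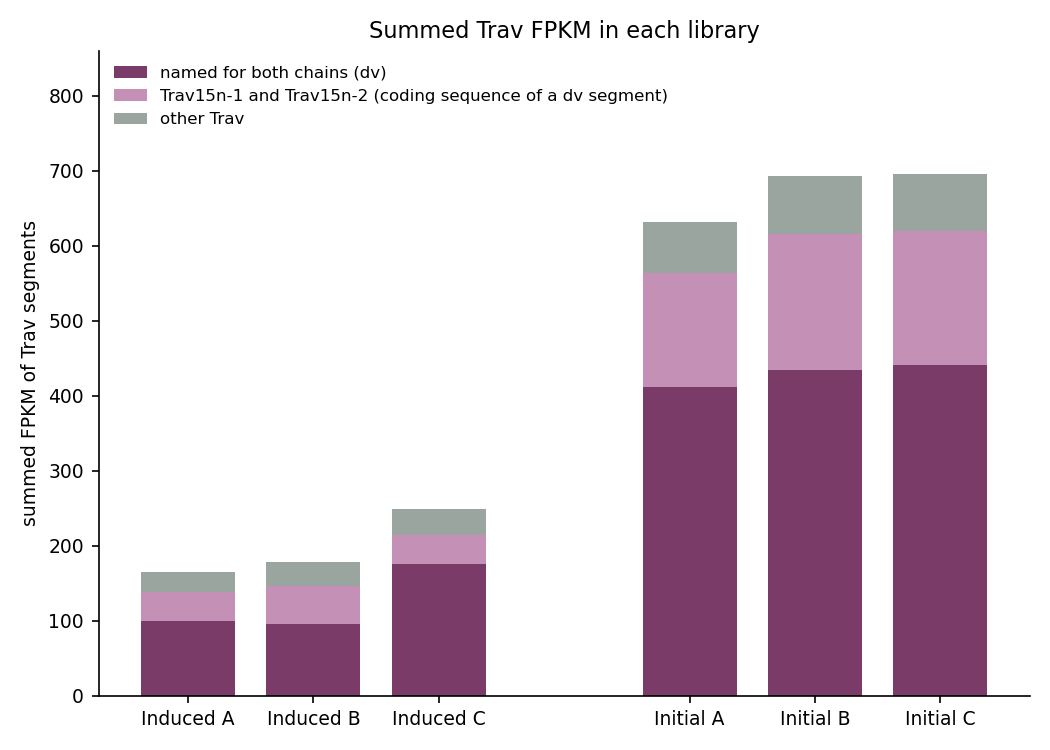
Summed FPKM of all Trav segments in each library, divided into segments named with dv, Trav15n-1 with Trav15n-2, and all other Trav. The full bars stand at 165 to 249 FPKM in Induced and 632 to 696 FPKM in Initial libraries, and the remainder at the top at 26.9 to 35.4 FPKM in Induced and 68.6 to 76.98 FPKM in Initial libraries.

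The V signal lay in few families. The 49 listed segments outside families 13 to 16 and 21, which were chosen after their values were seen, held 0.975 to 1.70% of the V sum in Induced and 1.03 to 1.26% in Initial libraries. Their sum was 2.81, 2.71 and 2.43 FPKM in Induced A, B and C, against 6.85, 8.76 and 7.18 FPKM in Initial A, B and C. The 6 segments of the Trav15 family held 56.4, 62.5 and 38.6% of the V sum in Induced A, B and C, against 65.8, 70.4 and 67.1% in Initial A, B and C. The Trav13 family held 29.0, 20.5 and 51.7% in Induced A, B and C, against 23.2, 18.5 and 22.6% in Initial A, B and C, and Trav13-4-dv7 made up 80.7% or more of that family in each library. Induced C stood apart in both families. The Trav14 family held 5.25 to 12.4% in Induced and 4.38 to 5.26% in Initial libraries.

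The share of the most abundant segment was 25.8, 23.9 and 45.5% in Induced A, B and C, against 19.9, 17.04 and 18.3% in Initial A, B and C. It was Trav15n-1 in both libraries of mouse B and Trav13-4-dv7 in the other 4. The inverse Simpson number, the number of equally abundant segments that would give the same evenness, was 6.07, 6.53 and 4.10 in Induced A, B and C, against 8.56, 8.73 and 8.55 in Initial A, B and C. When segments of a family were summed first the order turned, with a mean of 2.34 ± 0.10 in Induced and 1.96 ± 0.08 in Initial libraries (SD, n = 3 each). Fewer segments of equal weight thus held the signal in Induced cells by segment, but not by family. Copies with identical coding bases count as separate segments here. The values by segment therefore depend on how shared reads were assigned, which is not given.

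The V sum was 3.22, 3.74 and 3.33 times the FPKM of Trac in Induced A, B and C, against 4.79, 5.46 and 4.90 times in Initial A, B and C, and these ratios did not overlap. Segments with dv and their identical copies make up most of that sum. The remaining segments without dv summed to 0.473 to 0.663 times Trac in Induced and 0.520 to 0.607 times in Initial libraries, with a mean of 0.553 in both groups, so that here the ratios overlapped. For segments with dv the ratio was 1.94 to 2.34 in Induced and 3.11 to 3.42 in Initial libraries. The 5 listed Trdv segments, which are spliced to Trdc, summed to 795, 754 and 529 FPKM in Induced A, B and C, against 263, 266 and 291 FPKM in Initial A, B and C. For V segments of the δ chain the groups thus lay the other way round, through Trdv4.

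Along the chromosome rows were present for genes of all of the repeated blocks, although reads within identical coding bases cannot be placed in one block. Of the V genes annotated as functional, 25 of 34 with the letter d, 24 of 28 with the letter n and 29 of 46 without a letter had a row. Of the V pseudogenes, 0 of 5 with d, 0 of 6 with n and 2 of 9 without a letter had one, the pair being Trav13-3 and Trav8-2, at up to 0.803 FPKM. Among segments with the letter d or n, those with a mean above 10 FPKM belonged to pairs with identical coding bases across these blocks. Which block gave the signal cannot be told from these bases. Trav13-4-dv7 and Trav15-2-dv6-2, which have no letter and no identical copy, averaged above 10 FPKM in both groups. Trav13-4-dv7 lies between Trav16, with means of 3.29 FPKM in Induced and 9.09 FPKM in Initial cells, and Trav14-3, at 2.85 and 3.45 FPKM. Trav15-2-dv6-2 lies between Trav14-2, at 1.65 and 5.15 FPKM, and Trav3-3, listed in Initial C alone at 0.207 FPKM.

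**Figure D4:**
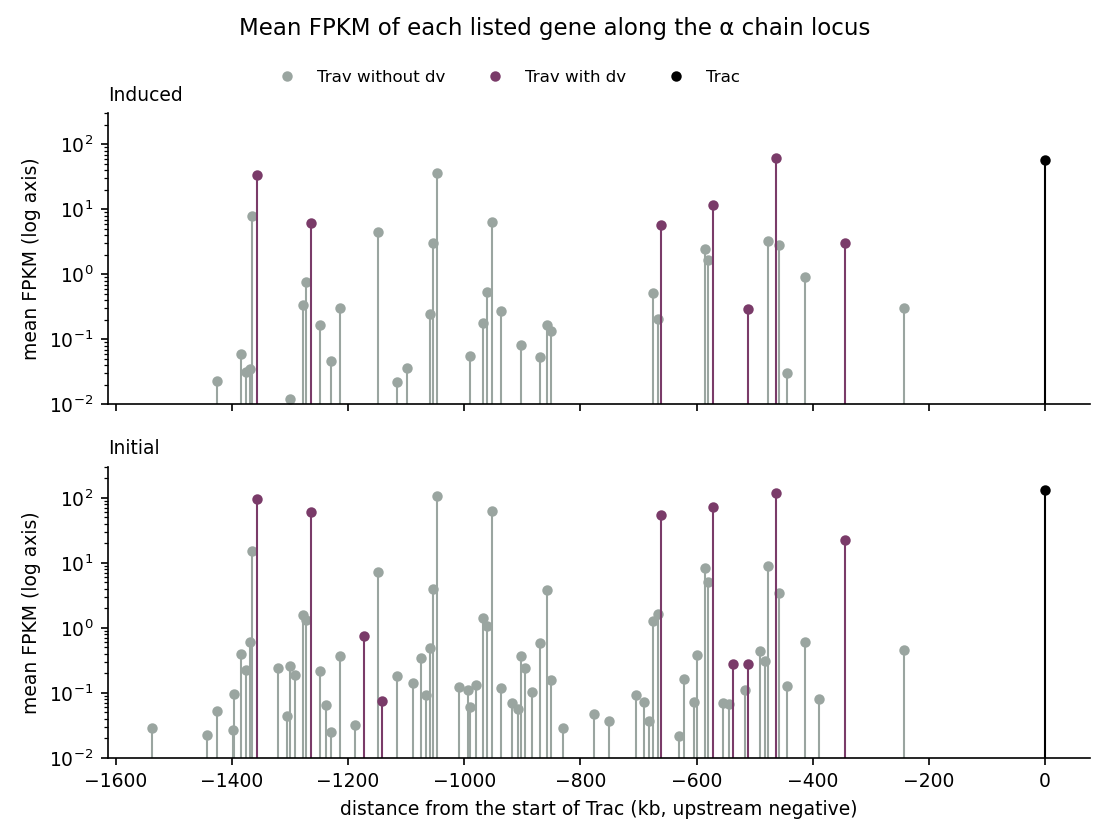
Mean FPKM (log axis) of each listed gene by its distance from the start of Trac in kb, for Induced (top) and Initial (bottom) libraries. Genes without a row in a group have no point there. Trac stands at 57.9 FPKM in Induced and 134 FPKM in Initial cells. Trav13-4-dv7, at 62.7 FPKM in Induced and 119 FPKM in Initial cells, stands next to Trav16, at 3.29 and 9.09 FPKM.

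Of the δ chain genes inside the locus, 6 of 11 listed by name had a row and all 6 were tested, of which 1 rose and 3 fell, beside 37.3% of all genes tested that rose and 33.1% that fell. Trdv4 rose, with 712, 689 and 366 FPKM in Induced A, B and C, against 33.2, 26.1 and 31.5 FPKM in Initial A, B and C (log2 change 4.18 ± 0.26, limma, adjusted p = 1.4e-05). Trdv1 fell, with 22.5, 15.2 and 73.5 FPKM in Induced A, B and C, against 115, 119 and 140 FPKM in Initial A, B and C (log2 change -2.03 ± 0.54, limma, adjusted p = 0.015). Induced C was the highest Induced library for Trdv1 and the lowest for Trdv4, and the call of Trdv1 was lost without Initial C or Induced A (adjusted p = 0.0602 and 0.0616, range 8.13e-06 to 0.0616 over 15 alternatives). Trdv2-1 and Trdv2-2 fell by 1.02 and 0.99 on the log2 scale (limma, adjusted p = 0.0057 and 0.0011). Among 7 genes around the locus 3 rose and 2 fell, which is near those shares of all genes. Dad1, which encodes a subunit of the oligosaccharyl transferase and follows the α enhancer downstream of Trac, had 154, 156 and 153 FPKM in Induced A, B and C, against 214, 175 and 215 FPKM in Initial A, B and C (log2 change -0.37 ± 0.09, limma, adjusted p = 0.0059). That call was lost with scaling to the CD3 chains and Trdc (adjusted p = 0.132, range 0.000656 to 0.132 over 15 alternatives). Slc7a7, an amino acid transporter subunit, was at 0.122 to 0.494 FPKM in Induced and 3.00 to 4.83 FPKM in Initial libraries, and was tested through its Initial values alone, so that its call followed from the filter. Mmp14, a membrane metalloproteinase, rose by 0.84, and Ndrg2 rose by 0.59.

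Of 8 tested genes of the receptor complex, the partners of the receptor chains on the cell surface, 4 fell and 0 rose, beside 33.1% of all genes tested that fell, 37.3% that rose and 70.4% that changed, so that fewer of these genes changed than of all genes. The median log2 change was -0.52 over the 8 and 0.03 over all genes tested. Those that fell included Trat1, an adaptor bound to the receptor (-2.25 ± 0.15), and Cd3e and Cd3d, which encode CD3 chains (-0.53 ± 0.06 and -0.47 ± 0.13), all by limma with adjusted p-values of 0.011 or less. The last was the coreceptor Cd4, at 0.0858 to 0.185 FPKM in Induced and 2.03 to 3.51 FPKM in Initial libraries, which was tested through its Initial values alone, so that its call followed from the filter. Cd8b1 had 18.4, 8.40 and 42.1 FPKM in Induced A, B and C, against 50.2, 37.7 and 63.5 FPKM in Initial A, B and C, and was not called (adjusted p = 0.066 by limma, 0.0291 with the mouse as a block). Cd8a had 6.50, 4.40 and 14.8 FPKM in Induced A, B and C, against 12.0, 8.69 and 13.8 FPKM in Initial A, B and C (adjusted p = 0.29 by limma). Ptcra, the surrogate α chain of immature thymocytes, had no row.

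Of 12 tested genes of the machinery that joins V and J segments 4 rose, 4 fell and 4 did not pass the test. These shares are near those of all genes tested, of which 37.3% rose and 33.1% fell. Rag1, which cuts the DNA at the segments, averaged 0.00557 FPKM in Induced cells and 0.0191 FPKM in Initial cells, and Rag2 had no row. Dntt, which adds bases at the junction, had 0.0527 and 0.104 FPKM in Induced A and B and no row in Induced C, against 4.36, 4.26 and 4.21 FPKM in Initial A, B and C. It is one of the 4 that fell, but was tested through its Initial values alone, so that its call followed from the filter. Polm, a polymerase that fills the ends, fell by 0.46 on the log2 scale, while Hmgb2, a DNA-bending cofactor, rose by 1.84 and Xrcc6, a Ku subunit, by 0.71 (limma, adjusted p-values from 1.5e-06 to 0.0038). Of 17 factors known to bind the α enhancer or to set α rearrangement, all tested, 10 fell, 4 rose and 3 did not pass the test, beside 33.1% of all genes tested that fell, 37.3% that rose and 70.4% that changed. The median log2 change was -0.34 over the 17 and 0.03 over all genes tested. Tcf7 had 43.5, 43.5 and 66.7 FPKM in Induced A, B and C, against 491, 472 and 454 FPKM in Initial A, B and C (log2 change -3.21 ± 0.16, limma, adjusted p = 1.7e-06). Myb fell by 1.94 on the log2 scale, and Cbfb, the partner of the Runx factors, rose by 0.86 (SE 0.07).

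By Euclidean distance of the centred log2(FPKM + 1) values over the 6 libraries, the genes nearest to Trac among 11246 tested genes that are not α chain genes were Treml2, Pogk, Satb1, Fam189b and Pam. Satb1, a chromatin organizer, had 45.9, 39.0 and 62.5 FPKM in Induced A, B and C, against 114, 111 and 111 FPKM in Initial A, B and C. It was chosen for its likeness to Trac over these libraries, so that an order of libraries and a gap between the groups like those of Trac follow from the choice.

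For each list of other cell types the summed FPKM was lower in every Induced than in every Initial library. Single genes did not all follow. Of all genes tested, 35.4% were lower in every Induced than in every Initial library, and 75.4% did not overlap in either direction. As the mice lack the β chain, the αβ T cell list is not a count of αβ T cells. The summed FPKM of 6 αβ T cell markers was 33.2 to 98.7 in Induced and 108 to 130 in Initial libraries, with 2 of 6 lower and 2 of 6 higher without overlap. In that list Themis, a signalling protein of αβ thymocytes, fell, with 19.8, 16.9 and 39.0 FPKM in Induced A, B and C, against 47.9, 57.3 and 48.9 FPKM in Initial A, B and C (limma, adjusted p = 0.016), and Cd4, given above, was the other gene that was lower without overlap. The 2 that were higher in Induced cells without overlap were Zbtb7b, a factor of CD4 lineage choice, and Foxp3, the factor of regulatory T cells. Zbtb7b had 2.34, 3.06 and 2.22 FPKM in Induced A, B and C, against 0.594, 0.625 and 0.580 FPKM in Initial A, B and C, and was tested through its Induced values alone. Foxp3 had 0.464, 0.252 and 0.449 FPKM in Induced A, B and C, against 0.111, 0.119 and 0.0661 FPKM in Initial A, B and C, and was not tested. Cd8a and Cd8b1 overlapped between the groups. Sums of the B cell list were 70.1 to 117 FPKM in Induced and 1441 to 1686 FPKM in Initial libraries, and those of the macrophage list 0.489 to 0.886 FPKM in Induced and 411 to 727 FPKM in Initial libraries. The red cell list summed to 0.688 to 0.933 FPKM in Induced and 729 to 1068 FPKM in Initial libraries. The NK cell list summed to 19.1 to 77.5 FPKM in Induced and 104 to 117 FPKM in Initial libraries. Of its 4 genes, 3 were lower without overlap. In the immature thymocyte list 3 of 5 genes had a row. They summed to 4.79 to 7.86 FPKM in Induced and 43.5 to 49.5 FPKM in Initial libraries. Most of that sum was Cd1d1, at 4.69 to 7.86 FPKM in Induced and 39.3 to 45.2 FPKM in Initial libraries. Rag1 and Dntt are given above, and Rag2 and Ptcra had no row. All markers of the B cell, macrophage and red cell lists were lower in Induced cells without overlap, and Alas2 and Klra8 had no row in any Induced library. The γδ T cell list summed to 2969 to 3368 FPKM in Induced and 2540 to 2689 FPKM in Initial libraries, and its 12 genes were listed in both groups. Of these 12, 5 were higher and 2 lower in Induced cells without overlap, beside 75.4% of all genes tested that did not overlap in either direction. The part of these other cells in the α chain values was not tested.

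Induced C stood apart within its group in several of these measures. It had the highest Induced values of Trac, Trav13-4-dv7, Cd8b1, Themis and Trdv1 and the lowest of Trdv4 and Trdc. Sox13, a factor of γδT17 cells, was at 29.1 FPKM in Induced C and at 43.2 and 49.8 FPKM in Induced A and B. Without Induced C, Trac changed by -1.41 (adjusted p = 2.45e-06 by limma, range 2.45e-06 to 0.00255 over 15 alternatives). The counts of segments that fell were then 6 of 6 with dv and 8 of 11 without dv, beside 35.3% of the 10871 genes tested.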

How the data were processed

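Messenger RNA of Induced and Initial cells was compared in 3 libraries each. Per the labels' protocols, a VAHTS mRNA-seq kit and an Illumina machine were used, and Cuffdiff gave FPKM. The submitters' processing notes name CASAVA, HISAT2 2.0.5, Cuffdiff 1.3.0 and 2.2.1, and mm9. Per the file headers, each deposited table by the authors lists a gene identifier, symbol, locus and FPKM value. The start and end of 79 of the 81 listed α chain genes equal those of GENCODE M21 on GRCm38, so that build was used. How reads shared by copies were assigned, and whether strand was used, is not given in these sources.

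Values were tested by limma 3.58.1 (R 4.3.3) after log2(FPKM + 1) (trend and robust shrinkage, two-sided, Benjamini-Hochberg over the 11265 genes that reached 1 FPKM in 3 or more libraries), called at an adjusted p under 0.05 and tested on simulated data. Sums, shares and markers carry no test. Sequences were aligned globally with Biopython 1.88, and figures were drawn with matplotlib 3.10.9 in Python 3.11.15. Named genes were Trac, every tested V segment, every segment with dv, the 5 untested segments highest in each group, set genes of the lists, the 2 largest rises and falls per list, and the 5 genes nearest to Trac. Of the genes this rule takes, 1 is not reported here. The α chain genes and the lists were chosen with earlier results of these data known. No counts were used, and the steps between low values put the depth at about 22000000 to 24600000 fragments in Induced and 19300000 to 23100000 in Initial libraries, a rough estimate, since 45.7 to 49.1% of such values came within 0.15 of whole steps and chance alone would give 30%.

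The sample titles give the same mouse letters in both groups, which pairs the libraries by animal. Deviations from the group means correlated at 0.0393, 0.0307 and 0.1308 within mice A, B and C, and at -0.1324 to 0.0988 between mice. Nothing else says how the cells of a pair were handled, so p-values measure the spread between these libraries. Alternatives were other pseudocounts, filters and scalings, the mouse as a block, a moderated test without trend, leaving out each library and, chosen after seeing the data, summing copies of at least 97% identity.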

Additional observations from a re-analysis of the deposited data

How the results depend on the processing

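Trac kept its direction and its call in all 15 alternatives, with log2 changes of -1.41 to -0.99, and the count of segments with dv that fell was 5 or 6 in each. Over the V segments and Trac, 256 of the single alternative results kept the direction and the call, 9 lost the call, 7 gained it and 1 turned, Trav14-3, whose change was -0.67 to 0.0015 with single libraries left out, the highest without Induced A. Trdc ran from -0.020 without Induced A to 0.11 without Induced C, and was -0.0027 without Induced B. The count of segments without dv that fell was 7 of 12 tested as reported. With no filter on low values it was 15 of 70, beside 17.9% of all 26771 genes then tested that fell. When single libraries were left out it was 4 to 9, the lowest without Initial B. Over the 15 alternatives 17.9 to 35.3% of all genes tested fell. Of the recombination and joining genes 8 changed as reported and 5 to 7 when single libraries were left out, the lowest without Initial A. Of the neighbours of the locus 3 changed with a filter at FPKM 5, where 5 of them were tested. With scaling to the CD3 chains and Trdc the mean Initial sum of segments with dv was 396 FPKM, against 429 FPKM as deposited. The effective number of segments was 2.34 in Induced and 1.96 in Initial cells with families summed, against 5.56 and 8.61 by segment. With the mouse as the replicate block, a paired fit, 5 segments with dv and 8 without dv fell, Trav14d-2 being added at an adjusted p of 0.0441 (limma), and of the genes named beside them Cd8b1 passed at 0.0291. The cause of these changes was not tested, other than that stricter filters and fewer libraries leave fewer genes to test. The alternative that leaves out the highest Traj segment was not run, since none had a row. Many values below 1 FPKM stand for few fragments at the roughly estimated depth, and the part of depth in them was not tested.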
